A study of Homo sapiens with 17 samples.

Results

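Gene expression was followed over time in YB5 cells that received the vehicle DMSO and no drug. YB5 is a human colon cancer line made from SW48, in which a green fluorescent protein gene under the CMV promoter is silenced, and every culture described here carries it. The study treated these cells with toyocamycin at 250 nM or with DMSO. Of its 17 labelled RNA-seq libraries, the 8 DMSO libraries were used. The count table holds 1 more DMSO column, headed as 10 h, which matches no labelled sample and was left out. The 8 libraries were taken at 2 h (n = 2), 10 h (n = 1), 24 h (n = 1), 48 h (n = 1) and 72 h (n = 3). The last time is given as the labels have it, 72 h. A later time is stated for it in the paper. The labels put replicate 2 of 2 h and the 10 h library in batch 2 and the other 6 libraries in batch 1, without saying what a batch is. How often the medium was replaced in these cultures is not given in the sources used here. The line was grown in L-15, a medium that holds galactose in place of glucose. The labels describe the RNA as biological triplicates, and a legend of the study gives duplicates, triplicates or single replicates by time point. Neither ties a library to a separate culture, so the p-values measure the spread between these libraries, which may be partly technical.

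Cells kept in culture divide, take up nutrients and oxygen, and come into contact with each other. Cells sense glucose partly through the transcription factor MondoA, which binds paired E boxes and drives TXNIP and ARRDC4, and sense oxygen through HIF1, which drives glycolytic enzymes, glucose transporters and genes such as NDRG1 and VEGFA. Epithelial cells of the colon also adjust keratins and junction proteins with density, and intestinal identity is held by transcription factors such as CDX2. These pathways are given as background, and neither nutrients, oxygen nor cell density was measured in these libraries.

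The libraries held 16179215 to 20756242 counts on genes. Reads of mitochondrial genes took 3.47% and 2.82% of counts in the 2 batch 2 libraries and 0.917% to 1.49% in batch 1. The epithelial markers EPCAM, CDH1, KRT8 and KRT18 were abundant in every library, while CDX1 had 0 counts in every library and KRT20 0 or 1. VIL1 and CDH17 were also low, at 0.52 to 2.64 CPM and 1.07 to 2.81 CPM in turn. KRT19 lay between 30.8 and 299.9 CPM and CDX2 between 66.6 and 338 CPM. The summed markers of blood cells and of endothelium stayed below 1 CPM (counts relative to the library's TMM-scaled total) in each library. The 9 fibroblast markers together gave 14.9 and 5.75 CPM at 2 h and 0.611 to 1.42 CPM at 72 h. Only 4 of those 9 passed the filter on low counts, COL1A1, COL1A2, COL3A1 and PDGFRB, and these 4 were called lower, while the defining markers DCN, LUM, PDGFRA and FAP lay between 0 and 5 counts in every library. The part of those transcripts in the results was not tested. In bulk RNA, fewer cells of a type and less RNA per cell cannot be told apart.

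Between 2 and 72 h, TXNIP fell 19.9-fold and ARRDC4 19.7-fold, NDRG1 rose 19.2-fold, and 19 of 22 glycolysis genes rose. To show the letters that MondoA and HIF1 are known to read, the 250 bases before the start of 4 of these genes are given first, 5′ to 3′ on the gene's strand, from RefSeq on GRCh38.p14. For TXNIP (chr1:145996580-145996829, minus strand, 1 of 2 starts listed) the capitals mark the letters of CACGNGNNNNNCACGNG, a pair of E boxes 5 bases apart as carbohydrate response elements have. For ARRDC4 (chr15:97960453-97960702, plus strand), ALDOC (chr17:28576896-28577145, minus strand) and ENO2 (chr12:6914330-6914579, plus strand) the capitals mark ACGTG, the core of the hypoxia response element, on either strand.
TXNIP: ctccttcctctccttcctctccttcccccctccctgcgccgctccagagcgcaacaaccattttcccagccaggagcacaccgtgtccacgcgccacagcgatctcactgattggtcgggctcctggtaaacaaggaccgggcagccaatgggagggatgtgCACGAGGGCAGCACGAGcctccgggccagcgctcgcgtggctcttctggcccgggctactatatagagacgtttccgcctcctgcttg
ARRDC4: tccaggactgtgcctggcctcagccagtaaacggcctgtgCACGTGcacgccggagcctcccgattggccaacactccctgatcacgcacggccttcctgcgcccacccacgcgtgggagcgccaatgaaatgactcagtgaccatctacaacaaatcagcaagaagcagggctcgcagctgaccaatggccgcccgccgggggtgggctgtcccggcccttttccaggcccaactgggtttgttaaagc
ALDOC: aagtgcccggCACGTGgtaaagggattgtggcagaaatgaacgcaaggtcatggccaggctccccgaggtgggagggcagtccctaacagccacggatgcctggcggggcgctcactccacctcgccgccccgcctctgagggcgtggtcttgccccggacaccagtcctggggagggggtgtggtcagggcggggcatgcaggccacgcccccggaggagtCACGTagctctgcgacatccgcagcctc
ENO2: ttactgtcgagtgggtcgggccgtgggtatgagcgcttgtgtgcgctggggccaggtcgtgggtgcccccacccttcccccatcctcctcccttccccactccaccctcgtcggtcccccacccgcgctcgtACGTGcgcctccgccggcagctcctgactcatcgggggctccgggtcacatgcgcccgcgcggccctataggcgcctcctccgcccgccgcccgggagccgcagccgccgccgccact

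The paired E boxes of TXNIP begin at -88 from the start, and the same letters were found in 16 of 35116 promoter stretches of this length, or 0.0456%. Among 15 stretches of the FOXO and MondoA list they were found in that of TXNIP alone, and not in that of ARRDC4. ACGTG was found in 18.5% of all stretches, in 17 of 47 stretches of the glycolysis list (36.2%), in 17 of 26 of the hypoxia list (65.4%) and in 4 of 15 of the FOXO and MondoA list (26.7%). CACGTG, as in ARRDC4 and ALDOC, reads as ACGTG on both strands and overlaps itself, and it is also the letters of an E box. A match describes these letters and is not evidence of binding.

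Between 2 and 72 h in DMSO, 1326 of 12338 genes tested were upregulated (10.7%) and 1283 were downregulated (10.4%) at an adjusted p under 0.1 (edgeR's quasi-likelihood test, Benjamini-Hochberg). Of the upregulated genes, 382 rose at least 2-fold and 94 at least 4-fold, and of the downregulated genes 449 fell at least 2-fold and 100 at least 4-fold. Genes called higher had a median log2 fold change of 0.75, genes called lower one of -0.83, and all genes tested one of -0.01. Scaling by library size alone, without TMM, turned the split to 824 higher and 2237 lower, with a median over all genes of -0.18, so that directions below are relative to the TMM scale. Every 72 h library lay above both 2 h libraries in 22.3% of all genes tested and below both in 22.5%.

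Of the genes called higher, 99.8% had every 72 h library above both of 2 h, and of those called lower 99.0% had every one below both. A kept direction within batch 1, which reuses these libraries, was thus nearly fixed in advance. All 2609 genes called in either direction kept their direction within batch 1. In that batch 3 libraries of 72 h were set against 1 of 2 h, and the lone library was assumed to vary like those of 72 h. There, 909 genes were called higher (7.37%) and 853 lower (6.91%), among them 799 of the genes called higher and 666 of those called lower with both 2 h libraries. A slope over hours across the 6 batch 1 libraries called 677 genes higher (5.49%) and 554 lower (4.49%). These fits share libraries, so that their calls are not independent, and 584 genes were called higher in all 3 (4.73%) and 461 lower (3.74%). The counts of 72 h against 2 h moved with the library left out. They were 653 higher and 519 lower without 72 h replicate 1, 606 and 467 without replicate 2 and 1462 and 1192 without replicate 3, and 1808 and 1590 without 2 h replicate 1. Within batch 1 they were 567 and 643, 393 and 423, and 2957 and 2496 without 72 h replicates 1, 2 and 3 in turn.

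The change was not spread evenly over the hours. In the genes called higher, the median difference from the 2 h mean was -0.00, 0.14 and 0.55 log2 units in turn at 10, 24 and 48 h, and 0.74 to 0.80 in the 72 h libraries. In the genes called lower it was 0.02, -0.20 and -0.66 in turn at 10, 24 and 48 h, and -0.77 to -0.88 at 72 h. The largest step between successive times thus lay between the 24 h and 48 h libraries, each of which is a single library. The median difference between these 2 libraries was 0.39 in the genes called higher and -0.44 in those called lower. A further part of the change came after 48 h. Of the genes called higher, 78.96% were higher in the 48 h than in the 24 h library, and 81.45% of those called lower were lower, where 50.71% of all genes tested were higher at 48 h.

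A separate comparison within batch 1, chosen after the data were seen, set the 3 libraries of 72 h against those of 24 and 48 h together. It called 262 genes higher (2.12%) and 103 lower (0.835%), and these counts ranged from 56 to 1358 and from 3 to 1255 when 1 library was left out, so that they depend on single libraries. Leaving out the 48 h library gave the highest counts, and leaving out 72 h replicate 3 the lowest.

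**Figure D1:**
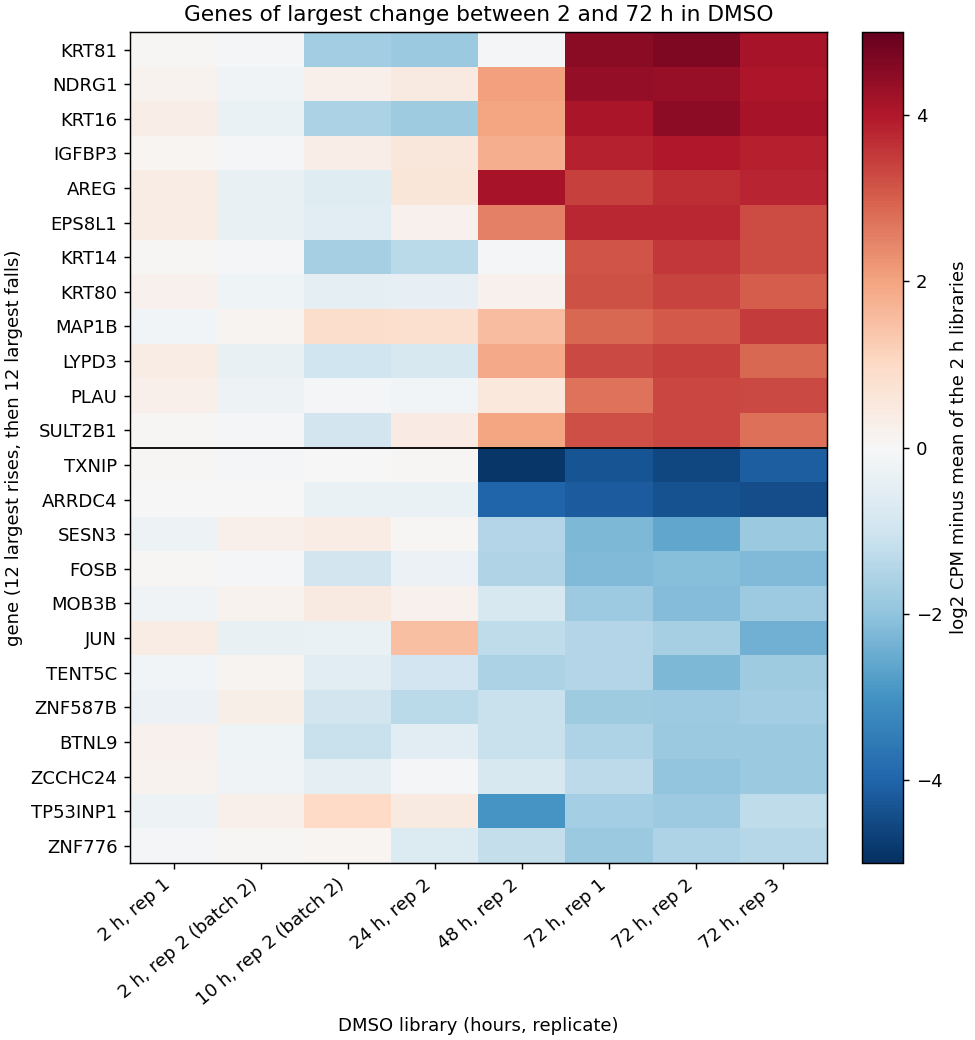
Each row is 1 of the 24 genes with the largest rises or falls from 2 to 72 h, each column 1 of the 8 DMSO libraries, and the colour is log2 CPM minus the mean of the 2 libraries of 2 h. TXNIP and ARRDC4 are blue from 48 h on, KRT81, KRT14 and KRT80 are deep red only in the 3 libraries of 72 h, and AREG and KRT16 are already red at 48 h.

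Among genes with an average log2 CPM of at least 3, the deepest falls were in TXNIP (ENSG00000265972, chr1:145992435-145996579) and ARRDC4 (ENSG00000140450, chr15:97960703-97973833), both arrestin-family proteins that limit glucose uptake and that MondoA drives. TXNIP stood at 222 and 206 CPM in the libraries of 2 h, 212, 224 and 7.34 in turn at 10, 24 and 48 h, and 10.8, 9.11 and 12.3 at 72 h. ARRDC4 stood at 85.5 and 87.1 CPM at 2 h, 68.2, 68.1 and 5.32 in turn at 10, 24 and 48 h, and 4.86, 4.22 and 4.04 at 72 h. Both genes were near their 2 h level through 24 h and low in the 48 h library and in each of those of 72 h, with no overlap between the libraries up to 24 h and the later ones. The log2 fold changes between 72 and 2 h were -4.32 ± 0.17 (SE) for TXNIP and -4.30 ± 0.16 for ARRDC4, with an adjusted p of 3.21e-06 for each. Within batch 1 they were -4.38 and -4.30.

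The list of genes that respond to FOXO factors and MondoA, which sense insulin signalling and sugar, had 0 of 13 members higher and 7 lower, with a median log2 fold change of -1.22, and within batch 1 it had 0 higher and 7 lower with a median of -1.05. The share called lower was 53.8%, against 10.4% of all genes. With a filter of at least 10 counts in every library, which removes members low at 72 h, the median was -0.08. SESN3, a stress-induced regulator of mTORC1, was at 13.5 and 19.5 CPM at 2 h, 21.0, 16.98 and 5.90 in turn at 10, 24 and 48 h, and 3.38, 2.67 and 4.44 at 72 h (log2 fold change -2.23 ± 0.25, adjusted p = 0.00101). KLHL24, a FOXO-responsive gene, fell by 1.22 on the log2 scale. PDK4, which shuts pyruvate out of the citric acid cycle and is named here after its values were seen, fell from 4.77 and 4.55 CPM to 0.356, 0.222 and 0.707. The other members did not all follow: ARRDC3, IRS2, INSR, ERBB3, BCL6 and RICTOR were not called, and ARRDC3, an arrestin relative of ARRDC4, had a log2 fold change of 0.42 with an adjusted p of 0.282. The number called lower was 7 without each of the 5 libraries of 2 and 72 h in turn, 7 by DESeq2 and 7 at an unadjusted p under 0.05, with 0 higher in those other 2 counts; without 2 h replicate 1, 1 member was called higher.

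Glycolysis genes rose together. Of 22 members tested, 19 were called higher and 0 lower, with a median log2 fold change of 1.28, against 10.7% and -0.01 for all genes, and DESeq2 and an unadjusted p under 0.05 also gave 19 and 0. Within batch 1, 18 were called higher with a median of 1.14, and without 72 h replicate 2, 15 were. The median difference from the 2 h mean was -0.13, -0.19 and 0.63 in turn at 10, 24 and 48 h, and 1.20, 1.47 and 1.08 at 72 h. The list median was thus higher in each 72 h library than in the single 48 h library. Against the 24 and 48 h libraries together, 8 of 22 were called higher.

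HK2, the hexokinase that commits glucose to glycolysis in many tumours, was at 111 and 116 CPM at 2 h, 103, 89.9 and 334 in turn at 10, 24 and 48 h, and 543, 598 and 573 at 72 h (log2 fold change 2.33 ± 0.15, adjusted p = 6.05e-05). The aldolase ALDOC was at 24.4 and 19.7 CPM at 2 h, 25.3 and 34.9 in turn at 24 and 48 h, and 129, 146 and 115 at 72 h (2.56 ± 0.18, adjusted p = 9.45e-05). The enolase ENO2 was at 70.1 and 48.5 CPM at 2 h, 76.4 and 172 in turn at 24 and 48 h, and 300.3, 345 and 327 at 72 h (2.45 ± 0.20, adjusted p = 0.000152). In all 3 genes every 72 h library lay above every earlier one. In the annotation ALDOC overlaps RSKR and ENO2 overlaps LRRC23 on the same strand. PDK1, the kinase that turns pyruvate away from mitochondria, rose by 2.19 ± 0.23 on the log2 scale.

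Other steps of the pathway, named after their values were seen, moved the same way. The glucose transporter SLC2A1 rose from 1462 and 1156 CPM at 2 h to 4573, 4723 and 3875 at 72 h, with 1779 at 24 h and 3349 at 48 h. The lactate dehydrogenase LDHA rose from 529 and 647 CPM to 1604, 2092 and 2335, after 341 at 24 h. Its values in the 72 h libraries spread more than those of SLC2A1 but did not overlap with those of 2 h. PFKFB3 and PFKFB4, which set the level of the activator of phosphofructokinase, had log2 fold changes of 1.78 and 1.95. SLC2A3, a second glucose transporter, was at 0.151 and 0.120 CPM at 2 h and at 3.56, 3.50 and 3.79 at 72 h, where 2 h values this low rest on a few counts, and HKDC1, a hexokinase relative outside the list, went from 0.201 and 0.240 CPM to 10.4, 11.9 and 7.93. The 3 members not called were GAPDH (log2 fold change 0.29), PKM (0.31) and ALDOA (-0.16). ALDOA was listed at 1.36 to 5.43 CPM over the 8 libraries, and what sets so low a count was not tested.

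The hypoxia response list, made of HIF targets outside glycolysis, had 16 of 20 members higher (80.0%) and 1 lower (5.0%). Of all genes, 10.7% were higher and 10.4% lower. The list median was 1.18, and 1.15 within batch 1. NDRG1, a stress and differentiation gene induced by HIF, was at 25.7 and 20.6 CPM at 2 h, 27.3, 31.4 and 96.4 in turn at 10, 24 and 48 h, and 486, 469 and 381 at 72 h. Its log2 fold change was 4.26 ± 0.20 (adjusted p = 1.33e-05), and its 72 h libraries stood above the 48 h library, which stood above all earlier ones. ADM, the vasodilator adrenomedullin, was at 11.7 and 6.11 CPM at 2 h, 34.1 at 48 h and 47.9, 72.7 and 56.9 at 72 h (2.73 ± 0.30). BHLHE40, a repressor that HIF induces, and ANKRD37 had log2 fold changes of 2.33 and 2.15. VEGFA, the vessel growth factor, rose from 38.7 and 26.1 CPM at 2 h to 93.0, 99.5 and 83.7 at 72 h, and P4HA1, a collagen prolyl hydroxylase subunit, rose by 2.09 on the log2 scale.

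The members not called higher were BNIP3, ANGPTL4, LOX and CITED2. BNIP3, a mitophagy receptor, was called lower at 1.31 and 1.20 CPM at 2 h against 0.356, 0.611 and 0.252 at 72 h, while its relative BNIP3L rose from 30.8 and 45.9 to 128, 154 and 185. ANGPTL4 and LOX lay below 1 CPM in every library and were not called, and CITED2 had a log2 fold change of 0.18. These genes were named after their values were seen.

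**Figure D2:**
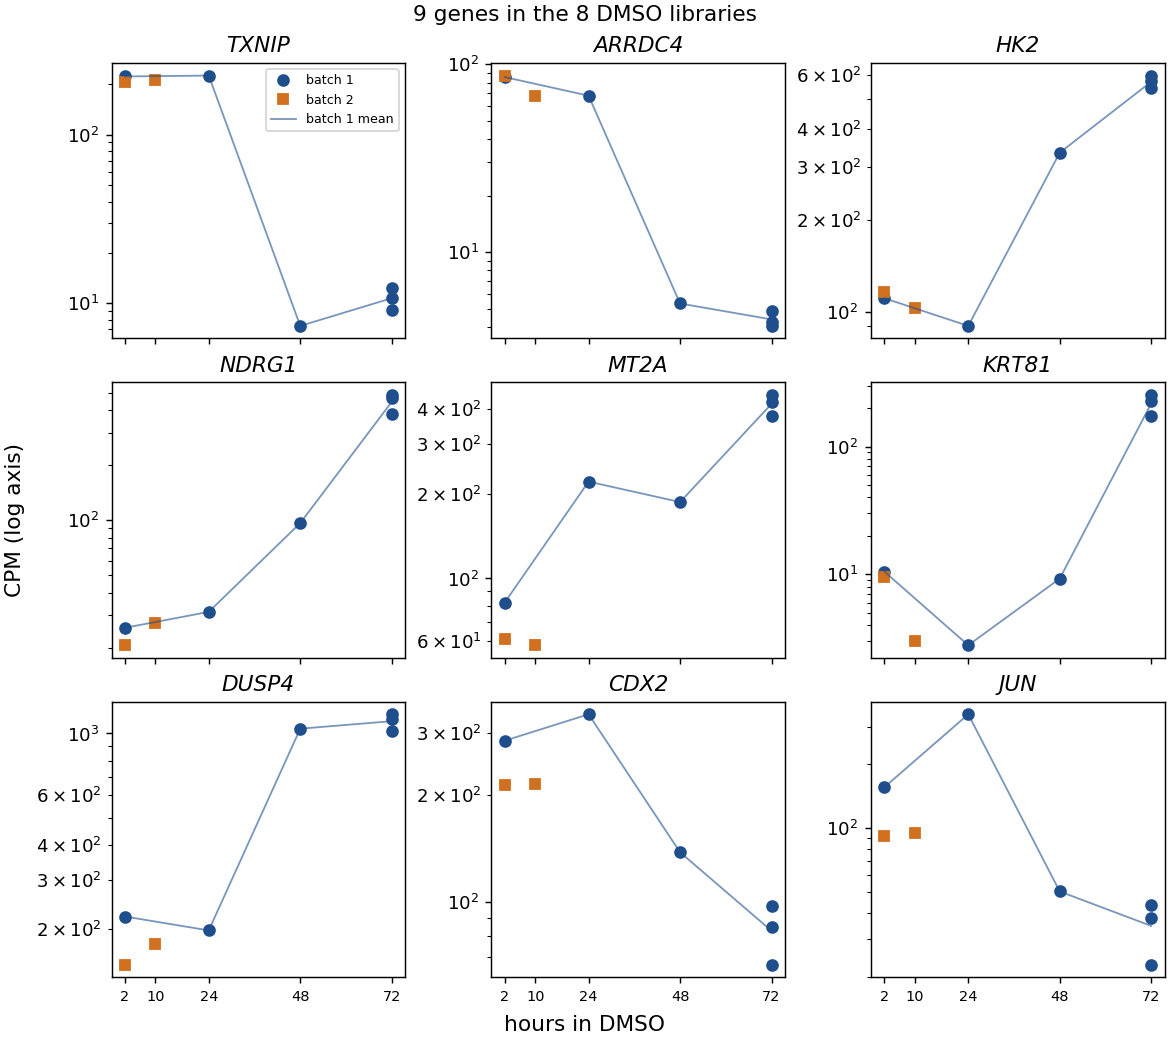
CPM on a log axis against hours in DMSO for 9 genes, with circles for batch 1, squares for batch 2 and a line through the batch 1 means. TXNIP and ARRDC4 drop between 24 and 48 h, HK2, NDRG1 and DUSP4 rise over the same interval, MT2A is up at 24 h already, KRT81 is lowest at 10 and 24 h and highest at 72 h, and JUN peaks at 24 h.

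Metallothioneins, small proteins that bind zinc and copper and are induced through MTF1, also rose. All 5 metallothionein genes tested, MT1E, MT1F, MT1G, MT1X and MT2A, were called higher in the comparison with both 2 h libraries and within batch 1, while of the other 2 members of the list the zinc exporter SLC30A1 was not called and MTF1 itself was called lower, with a log2 fold change of -0.50, though not within batch 1 (adjusted p = 0.348). MT2A was at 82.1 and 60.7 CPM at 2 h, 57.8, 221 and 187 in turn at 10, 24 and 48 h, and 379, 450 and 426 at 72 h (log2 fold change 2.55 ± 0.19, adjusted p = 9.45e-05). MT1G was at 8.39 and 5.15 CPM at 2 h, 23.0 and 18.7 in turn at 24 and 48 h, and 34.0, 36.5 and 37.8 at 72 h (2.41 ± 0.23). Both were already above every earlier library at 24 h and were highest at 72 h. MT1F took another course, with 6.18 and 5.87 CPM at 2 h, 11.4 at 24 h, 3.81 at 48 h, below its 2 h values, and 20.5, 24.0 and 23.2 at 72 h. Metallothionein genes are near-identical copies, so that reads may be split between them.

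In the list of keratins, claudins and junction proteins, 14 of 25 were called higher (56.0%) and 0 lower, with a median of 0.51, and within batch 1 12 were higher and 1, CLDN15, lower, with a median of 0.75. Of all genes, 10.7% were higher and 10.4% lower. The hair keratin KRT81 and KRT16 are not in that list and were named for their largest rises. KRT81 was at 10.5 and 9.46 CPM at 2 h, and 2.99, 2.78 and 9.25 in turn at 10, 24 and 48 h. It was at 226, 253 and 174 at 72 h (log2 fold change 4.45 ± 0.22, adjusted p = 1.59e-05). KRT16, a keratin of stressed and wounded epithelium, was at 42.7 and 26.6 CPM at 2 h, 11.3, 9.83 and 132 in turn at 10, 24 and 48 h, and 564, 740 and 586 at 72 h (4.18 ± 0.26). Both were lowest in the 10 and 24 h libraries, and at 48 h KRT81 stood near its 2 h values, whereas KRT16 stood above them. KRT81 overlaps KRT86 on the other strand in the annotation and is nearly identical to it, as KRT14 is to KRT16, so that their reads may be shared.

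The simple keratins of the colon were also lowest in the 10 and 24 h libraries. KRT8 was at 2558 and 2120 CPM at 2 h, 889, 1103 and 2188 in turn at 10, 24 and 48 h, and 5110, 5609 and 4613 at 72 h, and its partner KRT18 had a log2 fold change of 1.46 between 72 and 2 h. KRT80 rose by 3.18 ± 0.21, KRT19 by 2.04 ± 0.21 and KRT14, a basal keratin outside the list, by 3.33 ± 0.19. Against the 24 and 48 h libraries together the same genes rose by 3.27, 2.38 and 3.90, more than against 2 h. Among junction genes, CLDN4, a tight junction claudin, was at 91.4 and 51.7 CPM at 2 h, 107 and 279 in turn at 24 and 48 h, and 334, 375 and 293 at 72 h (2.22 ± 0.25), and CGN, the junction scaffold cingulin, rose by 1.72 ± 0.17. EPCAM was not called, with a log2 fold change of -0.06. Outside the list, LYPD3, EPS8L1 and SULT2B1 rose by 3.17, 3.57 and 3.11, and PLAU, the urokinase protease, by 3.12.

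The MAPK feedback list holds feedback genes of the pathway and epidermal growth factor ligands. It had 10 of 19 members higher (52.6%), 2 lower (10.5%) and 7 not called. Of all genes, 10.7% were higher and 10.4% lower. The list median was 0.61, and 0.57 within batch 1. AREG, the EGFR ligand amphiregulin, was at 29.7 and 17.8 CPM at 2 h, 34.8 and 401 in turn at 24 and 48 h, and 247, 295 and 325 at 72 h (log2 fold change 3.60 ± 0.25). DUSP4, a phosphatase of ERK that ERK signalling induces, was at 221 and 149 CPM at 2 h, 197 and 1040 in turn at 24 and 48 h, and 1128, 1171 and 1020 at 72 h (2.58 ± 0.21, adjusted p = 0.000152). The cytokine LIF was at 35.2 and 22.5 CPM at 2 h, 24.8 and 113 in turn at 24 and 48 h, and 195, 207 and 175 at 72 h (2.74 ± 0.22), and the ligand EREG rose by 2.26 ± 0.21. AREG was highest at 48 h and DUSP4 changed little after it, so that against the 24 and 48 h libraries together AREG had a log2 fold change of only 0.41 with an adjusted p of 0.84. SPRED1 and ETV5 were the 2 members called lower, with log2 fold changes of -0.49 and -0.42, and neither was called within batch 1.

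Immediate early genes, which respond within minutes to growth factors and stress, split. Of 27 tested, 8 were called higher (29.6%) and 7 lower (25.9%), against 10.7% and 10.4% of all genes. Their median was 0.03, and -0.03 within batch 1. FOSB was at 117 and 110 CPM at 2 h, 60.7, 92.9 and 40.0 in turn at 10, 24 and 48 h, and 24.9, 25.7 and 24.6 at 72 h (log2 fold change -2.18 ± 0.14, adjusted p = 6.05e-05). JUN was at 156 and 92.4 CPM at 2 h, 94.7, 344 and 50.4 in turn at 10, 24 and 48 h, and 43.6, 37.7 and 22.8 at 72 h (-1.84 ± 0.28). FOSL1, a JUN partner that accumulates under sustained ERK signalling, rose from 113 and 76.1 to 325, 351 and 286 CPM (1.76 ± 0.20), and ZFP36, an mRNA decay factor, was at 44.3 and 23.6 at 2 h, 202 at 24 h and 112, 96.2 and 85.5 at 72 h. Several members were highest in the 24 h library: FOS stood at 1171 CPM there, against 412 and 246 at 2 h and 300.4, 291 and 220 at 72 h, and the difference between 72 and 2 h was not called for FOS (adjusted p = 0.438). The median of the list was 0.69 above the 2 h mean in the 24 h library and 0.06, 0.03 and -0.14 from it at 72 h. FOSB overlaps ERCC1 on the other strand.

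Of 22 intestinal identity genes tested, 7 were called higher (31.8%) and 2 lower (9.09%), against 10.7% and 10.4% of all genes. Their median was 0.03, and 0.20 within batch 1. CDX2, the transcription factor that specifies intestinal epithelium, was at 285 and 213 CPM at 2 h, 215, 338 and 138 in turn at 10, 24 and 48 h, and 97.3, 84.7 and 66.6 at 72 h. It fell by 1.59 ± 0.19 on the log2 scale (adjusted p = 0.00132), by 1.78 within batch 1, and no library of 48 or 72 h reached one of 2 to 24 h. In contrast, CEACAM5, a surface glycoprotein of colon cancer, rose by 1.89 ± 0.32 from 3.17 and 1.497 CPM. HES1, a Notch target, was at 123 and 62.2 CPM at 2 h, 103, 387 and 218 in turn at 10, 24 and 48 h, and 198, 187 and 177 at 72 h. It rose by 1.01 on the log2 scale, and by 0.60 within batch 1, but its 24 and 48 h libraries stood above those of 72 h, and the slope over hours did not call it (adjusted p = 0.786).

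Wnt target genes also split, with 5 of 19 higher (26.3%) and 4 lower (21.1%), against 10.7% and 10.4% of all genes. Their median was 0.35, and 0.20 within batch 1. CCND1, cyclin D1, was at 475 and 458 CPM at 2 h, 386, 382 and 526 in turn at 10, 24 and 48 h, and 1233, 1155 and 1125 at 72 h (log2 fold change 1.33 ± 0.14, adjusted p = 0.000772). ASCL2, a stem cell transcription factor, rose by 1.49 ± 0.31. LGR5, a stem cell receptor, was at 10.0 and 12.8 CPM at 2 h and 6.35, 4.17 and 5.30 at 72 h (-1.11 ± 0.23), and NKD1, a Wnt feedback inhibitor, fell from 48.7 and 53.3 CPM to 23.5, 27.1 and 25.8. AXIN2, the usual reporter of the pathway, was not called, with a log2 fold change of -0.09.

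YAP and TEAD targets, which respond to contact and stretch, had 10 of 19 members higher (52.6%) and 1 lower (5.26%), against 10.7% and 10.4% of all genes. Their median was 0.47, and 0.35 within batch 1. IGFBP3, which binds insulin-like growth factors, was at 2.61 and 2.28 CPM at 2 h, 3.62 and 8.61 in turn at 24 and 48 h, and 35.0, 39.1 and 36.4 at 72 h (log2 fold change 3.91 ± 0.21, adjusted p = 1.89e-05). TGFB2 and AMOTL2, a junctional regulator of YAP, rose by 1.35 and 1.32, and CCN1 by 1.62. CCN1 was already at 224 CPM at 24 h, against 190, 254 and 238 at 72 h. The other standard target CCN2 had a log2 fold change of -0.30 and was not called.

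Among genes of cell division, the mitosis list had 10 of 35 higher (28.6%, against 10.7% of all genes) and 0 lower. Its median was 0.16. By library, the median difference from the 2 h mean was highest at 10 h, at 0.40. It was 0.25 and 0.19 in turn at 24 and 48 h, and 0.11, 0.07 and 0.37 at 72 h. Against the 24 and 48 h libraries together, 0 members were called in either direction, with a median of -0.005. The number called higher was 6 within batch 1 and 4, 4 and 9 without 72 h replicates 1, 2 and 3 in turn. The DNA replication list had 5 of 45 higher (11.1%, near the share of all genes) and 2 lower with a median of 0.06, and only 1 or 2 higher without 72 h replicate 1 or replicate 2. CDC20, an activator of the anaphase-promoting complex, rose by 0.92 ± 0.16 from 200.4 and 163 CPM to 346, 365 and 321, and RRM2, a subunit of ribonucleotide reductase, by 0.81 ± 0.16. MKI67 was not called, with a log2 fold change of 0.35. Of 14 CDK inhibitors and growth arrest genes 2 were called higher (14.3%, near the 10.7% of all genes), and 5 without 2 h replicate 1: CDKN1A, p21, was at 99.9 and 72.2 CPM at 2 h, 109 and 142 in turn at 24 and 48 h, and 252, 259 and 213 at 72 h (1.49 ± 0.19), and CDKN1C, p57, rose by 1.72 ± 0.32. Replication histones have transcripts that mostly lack a poly(A) tail and are poorly captured by the library kit. They had 1 of 28 higher (3.57%) and 7 lower, against 10.7% and 10.4% of all genes. Their median was -0.66, and -0.52 within batch 1. The median difference from the 2 h mean was lowest in the single 48 h library, at -1.23. It was -0.57, -0.67 and -0.56 in the 72 h libraries. H2AC6 was at 11.1 and 10.1 CPM at 2 h and 4.09, 3.44 and 3.58 at 72 h.

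**Figure D3:**
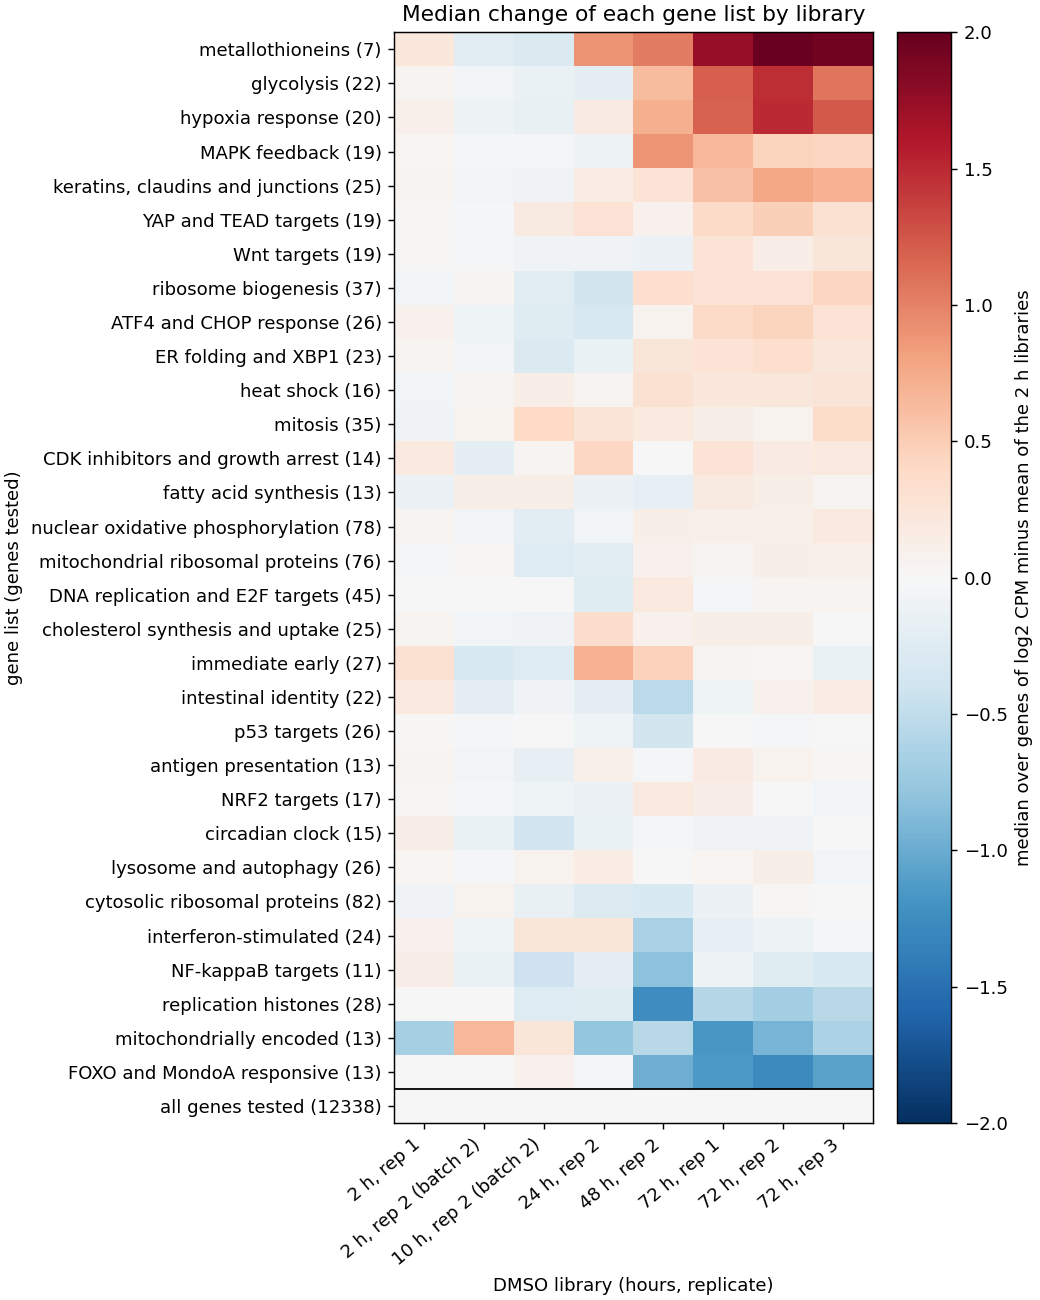
Median over the tested genes of each list of log2 CPM minus the 2 h mean, by library, with the lists in the order of their 72 h against 2 h median and the number of genes tested in brackets; the bottom row is all genes tested. Metallothioneins redden from 24 h, glycolysis, hypoxia and MAPK feedback from 48 h, the FOXO and MondoA list turns blue from 48 h, and the mitochondrially encoded list is red in the 2 libraries of batch 2 and blue in the other 6.

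Stress and biosynthesis lists shifted less. The ATF4 and CHOP list, the integrated stress response, had 7 of 26 higher (26.9%, against 10.7% of all genes) and 2 lower (7.69%, against 10.4%), with a median of 0.33, and 5 and 0 within batch 1, where 7.37% and 6.91% of all genes were called. GDF15, a stress cytokine, was at 9.40 and 3.53 CPM at 2 h, 8.77 and 7.34 in turn at 24 and 48 h, and 58.2, 65.2 and 44.9 at 72 h (log2 fold change 3.10 ± 0.37, adjusted p = 0.00119), and TRIB3, an ATF4 target, rose by 0.99 ± 0.18. ER folding genes had 7 of 23 higher (30.4%) and 1 lower, with a median of 0.30, among them HSP90B1 by 1.14 and PDIA4 by 1.07, from 884 and 670 CPM to 1584, 1711 and 1595, while DNAJB9 was called lower (-0.88, not called within batch 1). Ribosome biogenesis genes had 12 of 37 higher (32.4%) and 1 lower with a median of 0.33, 7 and 0 within batch 1, with 4, 5 and 11 higher without 72 h replicates 1, 2 and 3 in turn. LYAR, a nucleolar protein, rose from 55.9 and 54.7 CPM to 97.3, 98.4 and 115. Heat shock genes had 4 of 16 higher, where 10.7% of all genes were, and 0 lower. Their median was 0.22, and 0.20 within batch 1. Among those higher were HSPA1B (0.88) and HSPA8 (0.85), and HSPA1B shares its sequence almost wholly with HSPA1A. HSPA1B was at 90.1 and 54.4 CPM at 2 h. It was at 125, 172 and 135 in turn at 10, 24 and 48 h, and at 150, 131 and 119 at 72 h. Its log2 fold change was 0.56 within batch 1, and the slope over hours did not call it (adjusted p = 0.706). The counts of several lists moved with the library left out. Without 72 h replicates 1, 2 and 3 in turn, the members called higher were 7, 6 and 10 of the YAP and TEAD list, 3, 4 and 6 of the intestinal identity list, 3, 3 and 8 of the immediate early list, 3, 3 and 6 of the Wnt list, 5, 4 and 10 of the ATF4 and CHOP list, 4, 3 and 8 of the ER folding list, and 1, 2 and 4 of the heat shock list. Without 2 h replicate 1 they were, in the same order of lists, 8, 8, 11, 8, 9, 9 and 4.

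p53 targets had 5 of 26 higher and 5 lower (19.2% each, against 10.7% and 10.4% of all genes) with a median of 0.02. Those that rose were led by GADD45A, from 64.9 and 38.9 CPM at 2 h to 182, 210 and 174 (log2 fold change 1.86 ± 0.22), and PLK2 (1.69 ± 0.19), and those that fell by TP53INP1, at 8.29 and 11.9 CPM at 2 h, 19.9 at 10 h, 1.27 at 48 h and 3.02, 2.83 and 4.09 at 72 h (-1.59 ± 0.25). The slope over hours did not call TP53INP1 (adjusted p = 0.103), and it was lowest at 48 h. Among NF-kappaB targets 1 of 11 was higher, NFKB2 (1.01), and 4 lower (36.4%), BIRC3 (-1.81) among them, with the lowest list median, -0.82, at 48 h, and 1 was lower without 72 h replicate 1 or without replicate 2. Clock genes had 3 of 15 higher, against 10.7% of all genes, and 2 lower (13.3%, against 10.4%). Their median was 0.01, and -0.02 within batch 1. PER1 was at 66.5 and 54.6 CPM at 2 h, and these 2 h libraries stood above all later ones. It was at 13.0, 27.0 and 19.6 in turn at 10, 24 and 48 h, and at 29.8, 24.9 and 17.7 at 72 h (-1.33 ± 0.22).

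The remaining lists had called shares near or below the 21.1% of all genes called in either direction, or split. Cholesterol genes had 1 of 25 higher and 1 lower, fatty acid synthesis genes 2 of 13 higher and 2 lower, with SCD, the stearoyl desaturase, rising by 0.92 ± 0.16, and interferon-stimulated genes 2 of 24 higher and 1 lower. Antigen presentation genes had 0 of 13 called with edgeR's adjusted p, against 2 higher and 0 lower at an unadjusted p under 0.05 and 1 higher by DESeq2, with HLA-C at a log2 fold change of 0.27. Lysosome genes had 1 of 26 higher, CTSD, by 1.18, and 3 lower, NRF2 targets 1 of 17 higher, TKT, by 0.79, and 1 lower, cytosolic ribosomal proteins 0 of 82 higher and 1 lower, RPS23, mitochondrial ribosomal proteins 2 of 76 higher and 1 lower, and nuclear genes of oxidative phosphorylation 5 of 78 higher and 2 lower. None of those 7 oxidative phosphorylation genes was called within batch 1. Without 2 h replicate 1 more were called, with 4 cytosolic ribosomal proteins higher and 12 lower, 11 mitochondrial ribosomal proteins higher and 3 lower, 17 oxidative phosphorylation genes higher and 6 lower, 4 cholesterol genes higher and 1 lower, 4 interferon-stimulated genes higher and 3 lower, and 3 antigen presentation genes higher.

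Of the 13 mitochondrially encoded genes, 0 were called higher and 8 lower with both 2 h libraries, with a median of -1.03, and within batch 1 edgeR called 0 in either direction, with a median of -0.16, although 2 were lower at an unadjusted p under 0.05. DESeq2 called 2 lower with both 2 h libraries. With edgeR, 12 were lower without 2 h replicate 1, and 0, 3 and 10 without 72 h replicates 1, 2 and 3 in turn. MT-ND2, a subunit of complex I, was at 671 CPM in the 2 h library of batch 1 and 1992 in that of batch 2, 1243 at 10 h in batch 2, 593 and 636 in turn at 24 and 48 h, and 483, 532 and 723 at 72 h. The batch 2 libraries stood above all of batch 1, and the 2 h library of batch 1 lay within the range of the later ones. Batch 2 holds 1 library of 2 h and the only one of 10 h that was used. At 2 h each batch has 1 library, so that batch and library cannot be told apart. At 10 h batch and time cannot be told apart.

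**Figure D4:**
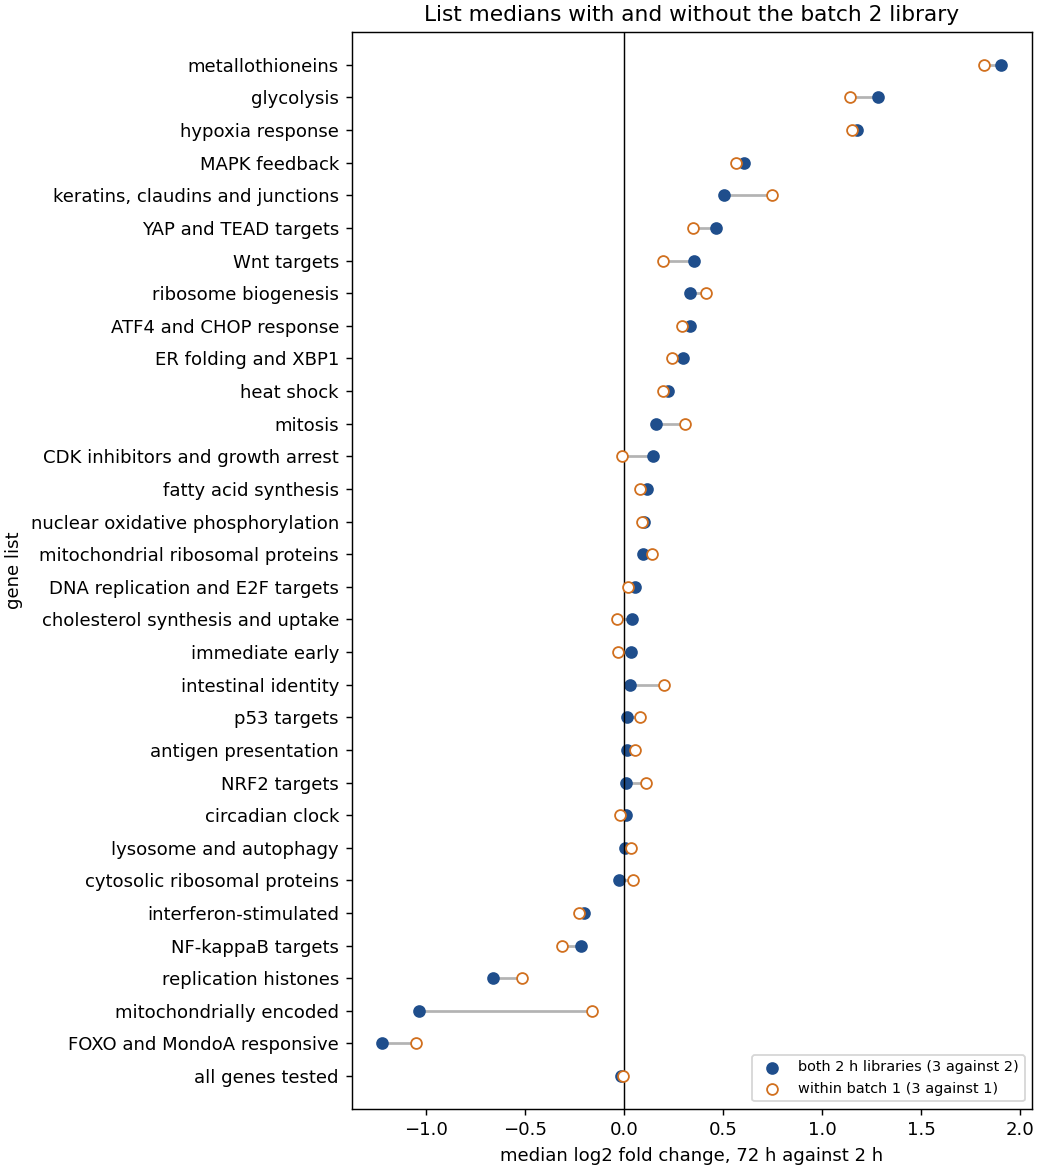
Median log2 fold change of 72 h against 2 h for each gene list, filled with both 2 h libraries and open within batch 1. The points lie close together for glycolysis (1.28 and 1.14), hypoxia (1.18 and 1.15) and the FOXO and MondoA list (-1.22 and -1.05), and far apart for the mitochondrially encoded genes (-1.03 and -0.16).

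Among the remaining genes of largest change, MAP1B, a microtubule protein of neurons, rose from 1.96 and 2.40 CPM to 15.8, 18.1 and 24.7. The falls held MOB3B, from 28.8 and 36.1 CPM to 9.25, 7.17 and 9.14, TENT5C, a poly(A) polymerase, from 15.5 and 18.4 to 6.05, 3.56 and 4.95, BTNL9, from 22.3 and 16.5 to 6.58, 5.28 and 5.30, and ZCCHC24, from 35.3 and 28.3 to 12.8, 7.94 and 8.73. In each of these 5 genes the 72 h libraries did not overlap with those of 2 h, which the choice of genes required. The zinc finger genes ZNF587B and ZNF776 completed the list, with log2 fold changes of -1.79 and -1.59, and ZNF587B overlaps ZNF586 on the same strand. All 24 genes chosen for their largest change kept direction and call under the 20 alternatives of the 72 h against 2 h comparison. The choice required a call and no overlap in that comparison, and the alternatives reuse these libraries. This outcome was thus nearly fixed in advance.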

How the data were processed

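The authors made poly(A) libraries, sequenced them in pairs, aligned the reads to GRCh38 with STAR 2.7.5a (per the submitters' processing notes) and deposited raw counts for 19141 genes. The strand setting of the counting is not given in the sources used here, so reads of a gene and an overlapping one on the other strand cannot be told apart. Of these genes, 19080 were matched to a symbol. Libraries were grouped by the titles and labels. The 1 column of per-sample values that matches no sample, headed as a DMSO library of 10 h, was not used. A deposited table of the authors' own comparisons (fold changes and p-values) was not used.

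Fits were run in R 4.3.3 (edgeR 4.0.16, with DESeq2 1.42.0 as an alternative), summaries in Python 3.11.15. The 8 DMSO libraries were filtered with filterByExpr, leaving 12338 genes, scaled with TMM and tested with edgeR's quasi-likelihood test (the form of edgeR 3), with Benjamini-Hochberg adjustment and a threshold of 0.1, as in the study's methods, and no minimum fold. The time groups were the only terms. The fitting step was tested on simulated counts. With 1 to 3 libraries per time and 16179215 to 20756242 counts per library, precision is limited by the number of libraries, and counts of 3 or fewer were treated as the floor for counting error only. CPM values are counts relative to the library total after TMM scaling, and ± gives the standard error of a log2 fold change.

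Genes named were the 12 largest rises and 12 largest falls among called genes without overlap between 72 and 2 h whose average log2 CPM reached 3, up to 4 called members of each of 31 lists (average log2 CPM of at least 2), and the markers of 4 lists; other members were named after their values were seen. The comparison, the lists and the rule were chosen with earlier results of these data known. Sequences came from RefSeq (GRCh38.p14), and the positions of genes from GENCODE. Replicate numbers were not used as pairs in the main fit. Alternatives varied scaling, tool, filter, libraries, threshold, batch term and block, and left out each library. The values of 2 list members are not reported here.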

Additional observations from a re-analysis of the deposited data

How the results depend on the processing

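The 24 genes of largest change kept direction and call under the 20 alternatives of the 72 h against 2 h comparison. Their choice required that call, and the alternatives reuse the same libraries, so that this was nearly fixed in advance. Of the 117 genes named by the rule, 116 kept direction. Other genes given in the text, such as EPCAM and FOS, are not among the 117. The exception among the 117 was HLA-C, which was not called. It turned from 0.27 to -0.065 with batch as a term in the 17 libraries and to -0.027 within batch 1. Without 1 library it ranged from -0.027 to 0.65. Of 31 list medians, 16 kept their sign under every alternative. The FOXO and MondoA median moved to -0.08 with at least 10 counts in every library, a filter that removes members low at 72 h.

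Library size alone gave 824 genes higher and 2237 lower for 72 h against 2 h, 447 and 1503 for the slope, 586 and 1773 within batch 1, and 196 lower against 24 and 48 h. An adjusted p under 0.05 gave 850 and 705 for 72 h against 2 h, and 382 and 224 for the slope. A minimum fold change of 1.5 gave 274 and 154, and a slope on log2 hours 3 and 1; the cause was not tested. Without 1 library, the genes higher and lower ranged from 606 to 1808 and from 467 to 1590 for 72 h against 2 h, from 246 to 908 and from 113 to 748 for the slope, from 393 to 2957 and from 423 to 2496 within batch 1, and from 56 to 1358 and from 3 to 1255 against 24 and 48 h, a comparison chosen after the data were seen, as were scaling factors from the 17 libraries, which gave 1272 and 1314. The within-batch counts were highest without 72 h replicate 3.

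With the replicate block, 1625 genes were higher and 1393 lower. Deviations from the group mean correlated at 0.30 for replicate 1 of both times and at -0.31 for replicate 2. They correlated at 0.49 for 2 h replicate 2 with 72 h replicate 3. With 2 libraries at 2 h, the values for its replicates 1 and 2 have opposite signs by construction. These 2 libraries also lie in different batches, so that pairing could not be judged from these values. Among the libraries used, the times of 10, 24 and 48 h have 1 each, and 10 h lies in batch 2 alone. The time and batch of the 10 h library thus cannot be told apart.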

Other observations

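The zinc finger genes, a large family of mostly KRAB-type repressors, moved down as a group, in a list chosen after the data were seen. Of 340 tested genes with a symbol of ZNF and a number, 10 were called higher (2.94%) and 140 lower (41.2%) at 72 h against 2 h, where 10.7% and 10.4% of all genes tested were called, and the median log2 fold change was -0.49, or -0.65 on the scale of library size alone. Within batch 1, 4 were called higher and 84 lower, with a median of -0.40. The median difference from the 2 h mean was 0.17, -0.09 and -0.45 in turn at 10, 24 and 48 h, and -0.49, -0.54 and -0.47 at 72 h. Counts of such genes can be shared with near-identical family members.

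The keratin family as a whole, a list also chosen after the data were seen, had 13 of 20 tested genes called higher (65.0%) and 0 lower, with a median of 1.35, and 12 higher and 2, KRT10 and KRT17, lower within batch 1. Its median stood at -1.52 at 10 h and -1.19 at 24 h from the 2 h mean, at -0.10 at 48 h and at 1.32, 1.41 and 1.30 at 72 h, so that the family was low in the middle libraries and high in the last ones. The 10 h value comes from batch 2 and the 24 h value from batch 1.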
